A study of Homo sapiens with 6 samples.

Results

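The regions described here are stretches of the genome that were listed as bound by ZIC2 in wild-type H1 cells, were not listed in H1 cells without ZNF263, and were wider than 400 bp. H1 (WA01) is an established human embryonic stem cell line. Binding was profiled by CUT&Tag in 6 libraries: 2 with an anti-ZIC2 antibody and 1 with normal rabbit IgG from wild-type cells (WT), and the same from cells in which ZNF263 was deleted with Cas9 (KO). The labels call the knockout homogeneous, and do not say whether it is a single clone or whether replicates came from separate cultures. The lists cannot show whether ZNF263 was absent from the KO cells, since they hold no expression values. The authors deposited 1 list of regions per genotype on hg19, with positions only.

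Members were selected on the 2 lists and on width: a region of the WT list on chromosomes 1 to 22 or X, above 400 bp, with no KO region sharing even 1 bp. There were 1344 such regions, called wide WT-only regions below, among 12937 WT regions and 16040 distinct regions of both lists on these chromosomes (16077 with other contigs). Of all WT regions, 68.3% were called only in WT, and of those above 400 bp, 35.7% (1344 of 3761). These shares follow from the rule and are descriptions. The files hold no peak height, read count or value per library, so no value below carries a replicate error, and sequencing depth is unknown. Absence from the KO list means only that no region was called, not that ZIC2 was measured as absent.

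ZIC2 belongs to the ZIC family of zinc-finger transcription factors and acts in pluripotent stem cells before differentiation and in the developing neural tube and forebrain. It binds both promoters and distal enhancers, often beside other factors. ZNF263 belongs to the large class of zinc-finger proteins that recognise DNA through arrays of fingers. In CUT&Tag a transposase is brought to the antibody and inserts adapters into nearby DNA, so that a broad region can hold several binding sites or a long stretch of open chromatin around a site.

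Wide WT-only regions were the upper end of a set made mostly of narrow ones. They made up 15.2% of the 8832 WT-only regions of any width and covered 768 kb. Their median width was 531.5 bp, with quartiles of 451 and 647 bp, and 67.4% of them (906) were no wider than 600 bp. The widest reached 1426 bp. The 2417 shared regions above 400 bp, which are in both lists, had a median of 614 bp and reached 1667 bp. The 503 KO-only regions of that size had a median of 546 bp and reached 1474 bp. Wide WT-only regions therefore outnumbered their KO-only counterparts by 2.67 to 1. This excess was not limited to wide regions: of any width, 8832 regions were WT-only and 3103 KO-only. The WT list was also the longer, with 12937 regions against 7208 in the KO list. Width chose the members, and a shared region has the same edges in both lists (4105 of 4105), so its width is not a value of either genotype alone. Such equal edges could come from lists selected from 1 joint set of regions, which the sources used here do not state. If so, the edges and widths of the members would also be joint values, and lack of overlap would mean only that the same region was not selected for KO.

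In both lists, the share of regions without a counterpart in the other list was lower among wider regions. Of WT regions up to 500 bp wide (and above 400 bp, as throughout), 46.6% were called only in WT (exact 95% binomial interval 43.7 to 49.5, 536 of 1150 regions). Between 501 and 600 bp the share was 41.6% (38.4 to 44.9), and it was 33.98% (30.4 to 37.7) in the next 100 bp. Regions of 701 to 800 bp gave 22.9% (19.03 to 27.2), those up to 1000 bp 19.3% (15.7 to 23.4), and those wider still 15.4% (10.7 to 21.2, 31 of 201). For the KO list, the share called only in KO was 24.2% (21.3 to 27.3, 196 of 810) up to 500 bp, 9.28% (6.55 to 12.7) from 801 to 1000 bp and 11.9% (7.71 to 17.3, 23 of 193) beyond 1000 bp. The fall with width was thus seen on both sides, and no difference between them was tested. These intervals hold for counting error alone, with each region taken as independent of the next. There was no step at the threshold: 67 WT-only regions exceeded it by at most 10 bp, and 59 lay within the last 10 bp up to it. The 6 narrowest members exceeded 400 bp by a single base, among them chr12:7047004-7047404 and chr17:30469047-30469447. Just outside, 7 WT-only regions measured exactly 400 bp, among them chr3:10595335-10595734 and chr20:17005280-17005679.

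**Figure D1:**
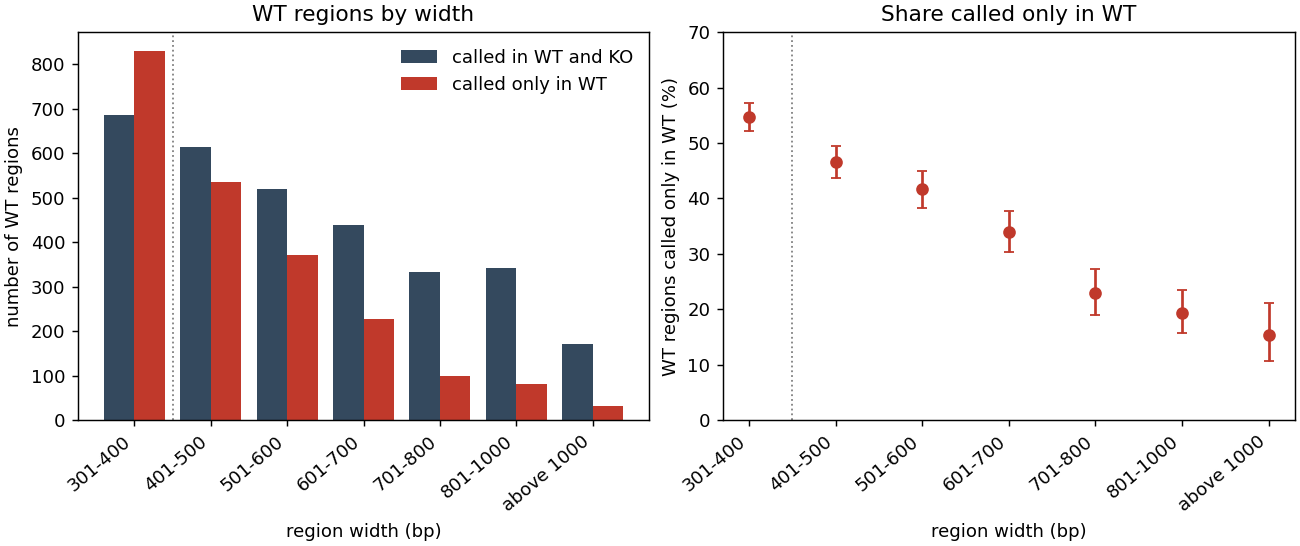
Number of WT regions (left) and percent of them called only in WT (right) by region width in bp; the dotted line marks the 400 bp threshold and error bars are exact 95% binomial intervals. The percent called only in WT goes from 46.6 in the first class above the threshold to 15.4 above 1000 bp.

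The 20 widest members measured 1080 to 1426 bp and lay on 11 chromosomes. Of these, 2 had another listed region within 5 kb, against 22.8% of all members, and 5 had none within 50 kb, against 34.7% of all. Their nearest listed region was WT-only in 12 cases, shared in 7 and KO-only in 1. These classes made up 55.1%, 25.6% and 19.3% of all listed regions. With only 20 regions, no difference from these shares or from all members was tested. The nearest region called in KO cells lay 1.899 to 1996 kb away, with a median of 88.8 kb, and in 7 of the 20 within 50 kb.

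The single widest member, chr16:89631178-89632603 (1426 bp), had its nearest neighbour, another WT-only region, 33.3 kb away and its nearest KO region 99.2 kb away. It lay in a populated stretch all the same, with 26 listed regions within 500 kb. The next, chr12:89746635-89747991 (1357 bp), directly touched a second member, chr12:89746131-89746634 (504 bp), so that the WT list runs without a gap over 1861 bp. All 4 listed regions within 50 kb of that place, these 2 included, were WT-only, and the nearest KO region was 190 kb off. The third, chr15:73075781-73077118 (1338 bp), had no listed region within 50 kb on either side, and its nearest neighbour at 97.1 kb was KO-only. The fourth, chr6:99872698-99873976 (1279 bp), had a WT-only neighbour at 30.8 kb and no KO region within 200 kb.

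For others of the widest members the nearest listed region was a shared one, called in both genotypes. The fifth, chr1:156023634-156024899 (1266 bp), had a shared region 5.901 kb away. The eighth, chr1:36348556-36349733 (1178 bp), was the closest of the 20 to a KO region, with a shared region 1.899 kb away. The member chr13:100623318-100624434 (1117 bp) had a shared region at 13.2 kb and its nearest other WT-only region only at 283 kb. In contrast, chr5:107144401-107145627 (1227 bp), the sixth, had no KO region within 1 Mb: the nearest shared region was 1996 kb away and the nearest KO-only region 4689 kb.

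Of the remaining widest regions, chr10:104473449-104474671 (1223 bp), chr1:52869498-52870659 (1162 bp) and chr12:132474516-132475668 (1153 bp) completed the first 10. The gap from each to its nearest KO region was 34.6, 347 and 92.8 kb. The X chromosome held 2 of the 20, chrX:54384413-54385538 (1126 bp) and chrX:132573999-132575085 (1087 bp), of which the first had no listed region within 280 kb. Chromosome 7 held 3, chr7:128471702-128472819 (1118 bp), chr7:150098695-150099811 (1117 bp) and chr7:70165013-70166111 (1099 bp). The nearest KO region to the second of these was 528 kb away. The last 4 in the order not yet given were chr9:99211568-99212699 (1132 bp), chr1:26856894-26857990 (1097 bp), chr6:37189549-37190641 (1093 bp) and chr5:141228426-141229505 (1080 bp). None of the 20 was on chromosome 19. Genes, promoters and sequence at these positions were not analysed here, because the gene and promoter tables used for this work are of GRCh38 and the lists are of hg19.

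**Figure D2:**
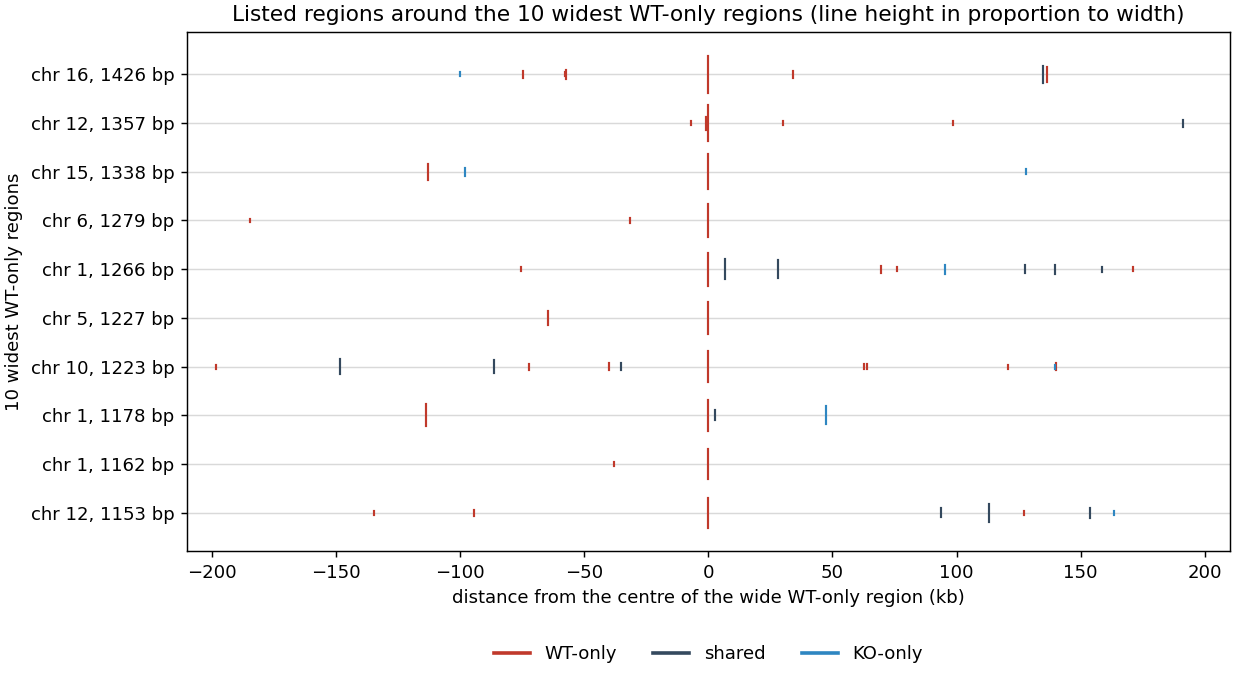
Every listed region within 200 kb of the 10 widest WT-only regions, by distance from the centre of each (kb); line height is in proportion to region width and colour gives the class. No KO region (shared or KO-only) is within 200 kb of the members on chromosomes 6 and 5 and of the 1162 bp member on chromosome 1, whose nearest KO regions are 205, 1996 and 347 kb away.

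In these lists, wide WT-only regions had another listed region within 5 kb less often than other wide regions. Against wide KO-only regions this depended on the distance, and against both classes on the kind of neighbour counted. Another listed region of any class lay within 5 kb of 307 of the 1344 members, or 22.8% (20.6 to 25.2). The share was 27.02% (25.3 to 28.8, 653 of 2417) for wide shared regions and 30.4% (26.4 to 34.6, 153 of 503) for wide KO-only regions. The difference from shared regions was -4.17 percentage points (95% interval -6.99 to -1.28; two-sided Fisher's exact test with p-values adjusted over 4 tests, adjusted p = 0.00661). From KO-only regions it was -7.58 points (-12.3 to -3.07, Fisher's exact test, adjusted p = 0.00216). The test compares regions of 2 lists and treats them as independent, and says nothing of replicate libraries. The neighbours come from the same 2 lists that set the classes, and 2 close wide regions count for each other. The p-values, here and at 50 kb below, thus describe these lists only. The difference from KO-only regions was not called within 1 kb (-2.93 points, Fisher's exact test, adjusted p = 0.120) or within 50 kb (-4.13 points, adjusted p = 0.0972). Counting only shared neighbours, a choice made after seeing the data, both differences lost their call (-1.89 and -3.00 points, Fisher's exact test, adjusted p = 0.0638 for each).

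On a longer scale the members again had the lowest share. Another region above 400 bp lay within 50 kb of 31.5% of the members (29.1 to 34.1), of 38.02% of wide shared regions and of 37.4% of wide KO-only regions. The differences were -6.47 points (-9.59 to -3.30, Fisher's exact test, adjusted p = 0.000279) and -5.83 points (-10.8 to -0.994, adjusted p = 0.0197). The second did not hold without chromosome 19, where it was -3.82 points (Fisher's exact test, adjusted p = 0.131). The median distance to the nearest listed region was 28.7 kb for members, 21.9 kb for wide shared and 21.6 kb for wide KO-only regions. No listed region at all within 50 kb was found for 34.7% of members (32.2 to 37.4), 27.5% of wide shared (25.7 to 29.3) and 30.6% of wide KO-only regions (26.6 to 34.8).

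Among the members themselves, the wider classes had lower shares with a close neighbour. A listed region lay within 5 kb of 24.8% of the members no wider than 500 bp (21.2 to 28.7, n = 536) and of 22.7% of those between 501 and 600 bp (18.5 to 27.3). The share was 21.2% for widths of 601 to 800 bp (16.9 to 26.1) and 18.6% beyond 800 bp (11.9 to 27.0, n = 113). The intervals of these 4 classes overlap, and the trend was not tested. A region of the KO list lay within 5 kb of 14.4% (77 regions), 11.6%, 12.9% and 7.96% (9 regions) of these classes, from narrow to wide. For wide shared regions of the same widths, counting other KO regions, the shares were 16.6%, 15.2%, 15.8% and 18.4%. Wide KO-only regions, counted likewise, gave 17.3%, 20.2%, 13.3% and 17.2%. Differences between these shares were not tested.

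**Figure D3:**
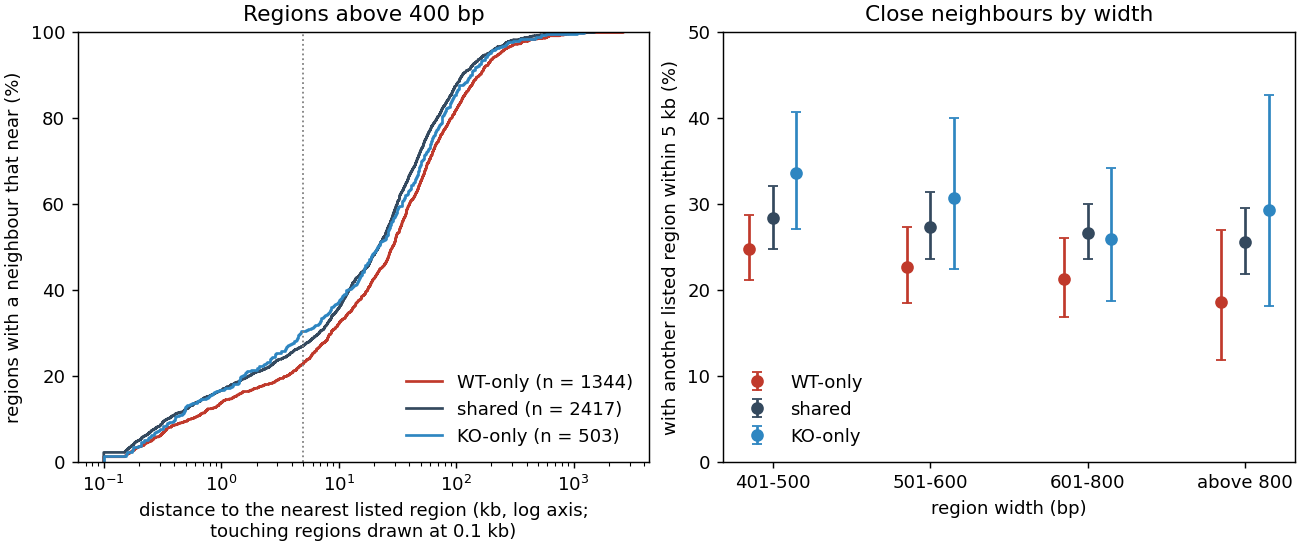
Left, percent of regions above 400 bp whose nearest listed region lies within the distance on the log axis (kb), for 1344 WT-only, 2417 shared and 503 KO-only regions; right, percent with another listed region within 5 kb (dotted line at left) by width, with exact 95% binomial intervals. The WT-only curve lies below both others at 5 kb, at 22.8% against 27.0% and 30.4%.

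By their median, members lay farther from any other KO region than the other wide classes did. The same held for the nearest other region of the WT list. Its median distance was 34.7 kb for members, 29.0 kb for wide shared and 27.3 kb for wide KO-only regions. For members the nearest region of the KO list lay at a median of 63.1 kb, with quartiles of 19.04 and 188 kb. It was within 500 kb for 90.7% of members, within 50 kb for 43.3%, within 5 kb for 12.7% (10.99 to 14.6, 171 regions) and within 1 kb for 7.37% (6.03 to 8.90, 99 regions). For wide shared regions, counting other KO regions, the median was 45.8 kb, with 16.4% (14.97 to 17.96) within 5 kb and 10.1% (8.88 to 11.3) within 1 kb. For wide KO-only regions it was 52.1 kb, with 16.9% (13.7 to 20.5) and 8.55% (6.26 to 11.3). These differences were not tested. Of the members, 60 had a shared region within 1 kb and 42 a KO-only region. The shared partners had a median width of 428 bp, and 36 of the 60 were themselves above 400 bp, about the 58.9% (2417 of 4105) of all shared regions. The KO-only partners were narrower, with a median of 176 bp, and 9 of the 42 (21.4%, 10.3 to 36.8) were above 400 bp, against 16.2% (503 of 3103) of all KO-only regions. The shares of wide partners were thus close to the make-up of their classes. The widest member with a KO-only partner this close was chr17:8125435-8126411 (977 bp), 441 bp from a KO-only region of 416 bp. At chr7:47519828-47520787 (960 bp) the partner lay 212 bp away and measured 150 bp.

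A small set of members touched another listed region, with no base between them. There were 16, of which 9 touched a shared region, 4 touched WT-only regions (2 pairs of members) and 3 touched a KO-only region. Apart from these, no member lay under 150 bp from its nearest region, while 64 lay at least 150 and under 300 bp away. Every region in any of the 38 touching pairs of the lists measured at least 504 bp, and the joined pairs measured 1182 to 2078 bp. Such a pair spans a long stretch with an edge inside it, and for 12 of the 16 members the region beyond that edge was called in KO. By comparison, 2920 of all 4264 listed regions above 400 bp were in the KO list, and no difference was tested. The longest touching pair with a member was on chromosome 12, where the member chr12:131248371-131249194 (824 bp) ends at the first base before a KO-only region of 1143 bp. Next was chr19:41283128-41283992 (865 bp), which touches a shared region of 1101 bp, for 1966 bp in all. At chr6:31140407-31140933 (527 bp) the adjoining shared region measured 798 bp, and at chr9:99382667-99383558 (892 bp) it measured 810 bp. The second pair made of 2 members was chr5:113696214-113697147 (934 bp) with chr5:113697148-113697818 (671 bp), 105 kb from the nearest KO region.

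The class of the nearest neighbour was close to the make-up of the lists. It was WT-only for 54.2% of members, shared for 27.9% and KO-only for 17.9%, while these classes made up 55.1%, 25.6% and 19.3% of all listed regions. Both flanking regions were WT-only for 32.1% of members (29.6 to 34.6), against 27.9% of wide shared (26.1 to 29.7) and 26.4% of wide KO-only regions (22.6 to 30.5). This difference was not tested. Neither flanking region was WT-only for 22.02% of members, 24.9% of wide shared and 19.9% of wide KO-only regions.

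Runs of neighbouring WT-only regions, unbroken by any KO region, held 1048 of the members (77.98%) in runs of at least 2. A WT-only region was likewise a direct neighbour of 75.1% of wide shared and 80.1% of wide KO-only regions, so the members' share lay between those of the other classes. WT-only regions are the largest class of the lists, and their longest run held 20 regions, against 7 for shared and 5 for KO-only regions. That run spanned chr12:123394592-125219301, over 1825 kb, with 5 members of 424 to 840 bp. The widest of them was chr12:123849676-123850515 (840 bp), and 9 of the 20 regions had the minimum width of 150 bp. A run of 19 regions covered chr4:89612114-99584175, which is 9972 kb without a region called in KO. It held 4 members, of which chr4:94755692-94756184 (493 bp) and chr4:95128626-95129223 (598 bp) were the 2 members farthest from any KO region, at 5160 and 4787 kb. On chromosome 5, the run chr5:102455824-109080030 held 14 regions and 4 members, among them the sixth widest of all.

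Another member was the direct neighbour of 236 members (17.6%, 15.6 to 19.7), and a member was the direct neighbour of 15.97% of wide shared and 17.3% of wide KO-only regions. Members made up 8.38% of all listed regions. That is a share per region, while a region can have 2 direct neighbours, so the 17.6% cannot be set directly against it. The nearest other member lay at a median of 359 kb, with quartiles of 119 and 966 kb, and within 50 kb for 12.7% of members. In 1108 cases a member stood with no other member as its direct neighbour in the lists, 107 times 2 followed each other, 6 times 3 and 1 time 4. The row of 4, chr17:73690163-73824159, spanned 134 kb with members of 710, 406, 609 and 505 bp. A row of 3 on chromosome 5, chr5:113643551-113697818, spanned 54.3 kb and ended in the touching pair named above.

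The members fell into 880 of the 2440 windows of 1 Mb that held any listed region, and 570 of these windows held a single member. Windows with 5 or more members numbered 12, of which 5 were on chromosome 19. The fullest, with 9 members each, were chr11:64000001-65000000 and chr19:17000001-18000000. They differed in their surroundings. The window on chromosome 11 held 20 WT-only, 18 shared and 6 KO-only regions, and its members lay among KO regions. There chr11:64038801-64039214 (414 bp) had 13 listed regions within 50 kb, the most of any member, and within that stretch were 6 members, 5 shared and 2 KO-only regions. One of them, chr11:64071721-64072446 (726 bp), touched a shared region of 587 bp, and chr11:64073358-64073850 (493 bp) lay 324 bp beyond that shared region.

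The window on chromosome 19 held 25 WT-only, 12 shared and 4 KO-only regions, none of the KO-only ones above 400 bp. There 8 of the 9 members lay in 2 unbroken WT-only runs. The first, chr19:17225428-17378217, had 9 regions with members of 486, 808, 441 and 699 bp. The second, chr19:17716593-17886332, had 8 regions with members of 908, 620, 419 and 406 bp. Runs with at least 4 members numbered 11 among 3834 WT-only runs. Other windows with many members were chr17:73000001-74000000 and chr19:50000001-51000000 with 7 each, and chrX:47000001-48000000 with 5 members, 3 wide shared and 0 wide KO-only regions.

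Chromosome 19 as a whole held a smaller part of the members than of the wide shared regions. It had 92 members, 6.85% of all, against 278 or 11.5% of the wide shared regions (odds ratio 0.565; adjusted p = 7.76e-05 in a two-sided Fisher's exact test, over 23 chromosomes). The members' share was near the 6.71% of all WT regions that lay on chromosome 19. It was above the 5.11% (451 of 8832) of WT-only regions of any width. Of the WT-only regions on chromosome 19, 20.4% were above 400 bp, the highest share of the 23 chromosomes, against 15.2% over all. These differences were not tested. Of WT regions of any width there, 51.96% (451 of 868) were called only in WT, against 68.3% over all chromosomes, so the low share was not limited to wide regions. Of its WT regions above 400 bp, 24.9% (20.5 to 29.6) were called only in WT, the lowest share of the 23 chromosomes. The chromosome tests, like those of spacing, treat regions as independent and say nothing of replicate libraries. Chromosome 19 was the only chromosome called, 4.35% of those tested. Per length it still had the most members, 1.56 per Mb up to its last listed region, followed by 1.10 on chromosome 17. The lowest autosome was chromosome 13 with 0.200 per Mb, and X had 0.162. Against wide KO-only regions, of which chromosome 19 held 10.1%, the odds ratio was 0.651, which was not called (adjusted p = 0.554, Fisher's exact test).

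On the X chromosome the difference ran the other way but was not called. Of its WT regions above 400 bp, 52.1% (37.2 to 66.7, 25 of 48) were called only in WT, the highest share of all chromosomes. It held 1.86% of the members and 0.952% of the wide shared regions (odds ratio 1.97), which did not pass adjustment (Fisher's exact test, p = 0.0223, adjusted p = 0.256). This difference of 0.909 percentage points fell to 0.332 among regions no wider than 600 bp (Fisher's exact test, adjusted p = 1), a choice made after seeing the data. On the other 21 chromosomes the share ran from 28.6% on chromosome 21 (15.7 to 44.6) to 40.8% on chromosome 5 (33.3 to 48.6), and each interval included the 35.7% of all.

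**Figure D4:**
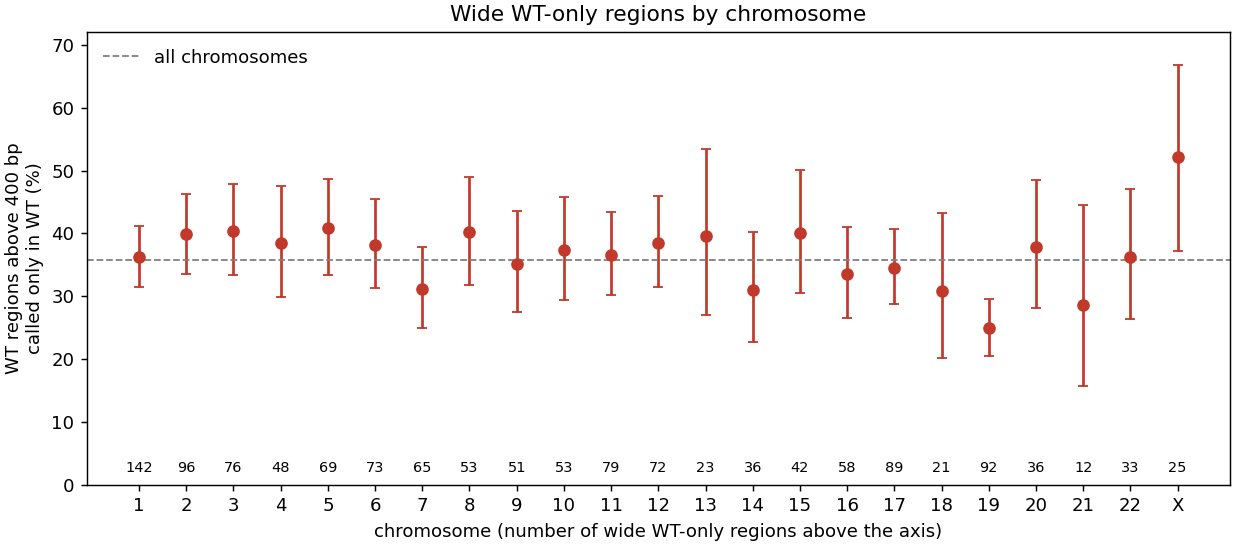
Percent of WT regions above 400 bp that were called only in WT, by chromosome, with exact 95% binomial intervals; the dashed line is the value over all 23 chromosomes (35.7%) and the numbers along the axis count the members. Chromosome 19 (24.9%) lies below the line with its whole interval, and X (52.1%) above it.

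The most isolated members were single regions in sparse stretches. The member chr1:104067658-104068652 (995 bp) was 2652 kb from the nearest listed region of any kind, which was WT-only. Next came chr12:39139071-39139766 (696 bp) at 1275 kb, chr18:53105843-53106771 (929 bp) at 1199 kb, chr12:24286187-24286641 (455 bp) at 1061 kb and chr13:48611808-48612364 (557 bp) at 938 kb. The nearest region was WT-only for 3 of these 5, shared for that on chromosome 18 and KO-only for that on chromosome 13. In all, 20 members (1.49%, 0.911 to 2.29) had no other listed region within 500 kb, against 17 of the wide shared regions (0.703%, 0.410 to 1.12) and 6 of the wide KO-only regions (1.19%, 0.439 to 2.58). These differences were not tested.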

How the data were processed

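CUT&Tag for ZIC2 was done in H1 cells of 2 genotypes, with 2 ZIC2 libraries and 1 IgG library each. The deposited files are 1 list per genotype with chromosome, start and end of each region, and no other value. The submitters' processing notes name Bowtie2, Picard and the build hg19. Peak caller and threshold, the role of IgG and the way replicates were joined were not given in the sources used here. Depth is therefore unknown, and the IgG libraries were not analysed here.

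Lists were read with Python 3.11.15, pandas 2.3.3 and scipy 1.17.1. Starts are printed counted from 1. Distances are bases between edges. Shares have exact Clopper-Pearson 95% intervals, and differences of shares have Newcombe intervals. Spacing was compared by two-sided Fisher's exact tests with Benjamini-Hochberg adjustment over 4 tests, and chromosomes over 23. Routines were tested on simulated lists. Named regions are the 20 widest, the 5 most isolated and the most crowded members, and those at the threshold. Touching regions, close partners, the members farthest from a KO region, runs and windows were named after their values were seen. The members, lists and tests were chosen with earlier results of these data known. Planned tests of gene starts, gene lists and sequence motifs were not run, since no genome or annotation of hg19 was at hand.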

Additional observations from a re-analysis of the deposited data

Results flagged for a closer look

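Outside chromosomes 1 to 22 and X the lists held 37 regions on other contigs, of which 21 were above 400 bp. These contigs were left out by the rule. Of these 21 wide regions, 4 were called only in WT (19.05%, exact 95% binomial interval 5.45 to 41.9), against 1344 of 4264, or 31.5%, on the chromosomes used. They are given here because no comparison above uses them, and no control list was at hand to set beside them.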

How the results depend on the processing

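The number of wide WT-only regions depends on the width asked for, by construction: 2174 above 300 bp, 808 above 500 bp and 438 above 600 bp, and their share of WT regions of that size was 41.2%, 30.9% and 25.4%. Counting a KO region within 1 kb as overlap gave a share of 33.1%, and autosomes only or joined regions left it within its interval. At 5 kb the differences in spacing kept their call for widths up to 600 bp alone, without chromosome 19, with touching regions joined and within 10 kb. Nearest to the 0.05 threshold was that from shared regions up to 600 bp (-3.94 points, Fisher's exact test, adjusted p = 0.0479). Next came that from KO-only regions within 10 kb (-5.11 points, Fisher's exact test, adjusted p = 0.0405). The difference from KO-only regions lost its call within 1 kb (-2.93 points, Fisher's exact test, adjusted p = 0.120) and within 50 kb (-4.13 points, adjusted p = 0.0972). With shared neighbours only, the differences were -1.89 and -3.00 points. For wide neighbours, the difference from KO-only regions lost its call within 100 kb (-4.59 points), within 500 kb (-3.12 points) and without chromosome 19 (-3.82 points), while that from shared regions kept it. Against KO-only regions 0 chromosomes were called by Fisher's exact test (1 at an unadjusted p under 0.05). The cause was not tested for any of these losses. No paired analysis was possible because 1 list stands for the 2 replicates of each genotype, and no replicate could be left out. Alternatives for gene starts and motifs were not run.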
